A study of Mus musculus with 18 samples.

Results

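The transcripts followed here belong to 8 genes that modify the mouse liver clock rather than forming its core: *Bhlhe40*, *Bhlhe41*, *Ciart*, *Csnk1d*, *Csnk1e*, *Btrc*, *Fbxw11* and *Gsk3b*. They were taken by gene symbol from a table of 14451 genes. All 8 were present and all were among the 14449 genes tested. The livers came from WT male mice, 8 to 9 weeks old, kept under a cycle of 12 h of light and 12 h of dark, and no other genotype, agent or tissue was studied. Livers were taken at zeitgeber time (ZT, hours after lights on) 1, 5, 9, 13, 17 and 21. At each time point 5 mice were used and the 3 with the best RNA were sequenced, so that 18 livers, each from a separate mouse, give n = 3 per time point, and 1 day was covered only once. Whole liver was used, in which fewer cells of a type and less RNA per cell cannot be told apart.

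The core clock is a feedback loop in which the CLOCK and BMAL1 (*Arntl*) proteins bind E-box sequences and switch on the *Per* and *Cry* genes, whose products then repress them. *Bhlhe40* (DEC1) and *Bhlhe41* (DEC2) encode related repressors that bind E-boxes themselves, and *Ciart* encodes CHRONO, a repressor that binds BMAL1. *Csnk1d* and *Csnk1e* encode the casein kinases that phosphorylate PER proteins, *Btrc* and *Fbxw11* encode the paired F-box proteins (β-TrCP) that hand phosphorylated PER to a ubiquitin ligase, and *Gsk3b* encodes a kinase with several clock proteins among its substrates. The kinases and F-box proteins act on proteins, and only their RNA was measured here.

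The 8 genes split evenly. *Ciart*, *Bhlhe41*, *Bhlhe40* and *Btrc* varied over the day, with fitted peaks in the light phase, whereas no daily variation was detected for *Csnk1d*, *Csnk1e*, *Fbxw11* and *Gsk3b*. In limma fits of a 24 h cosine to log2(normalized value + 1), 4 of the 8 members had a q-value (Benjamini–Hochberg adjusted *P*-value over all genes tested) below 0.05, beside 35.3% of all genes. The F test of the 6 time points, which assumes no curve, called the same 4 members, beside 26.3% of all genes. JTK, a rank-based test for rhythms of 20 to 28 h, called only *Ciart*, beside 14.1% of all genes. A further 3 members had an unadjusted *P*-value below 0.05 by JTK. The share of all genes below 0.05 before adjustment was not counted for this or any other test here. The null of JTK took the 6 time points as separate groups, although a 24 h cosine has equal values at some of them. With equal cosines taken as 1 group, JTK called 3 members, beside 3237 of the 14449 genes. With separate groups it called 2039 genes, and the JTK q-values given with each gene come from this stricter null. These counts are over 8 genes, and none of them sets the members apart from the background. The sizes of the daily swings of *Ciart*, *Bhlhe41* and *Bhlhe40* were toward the top of all genes, as given with each gene.

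**Figure D1:**
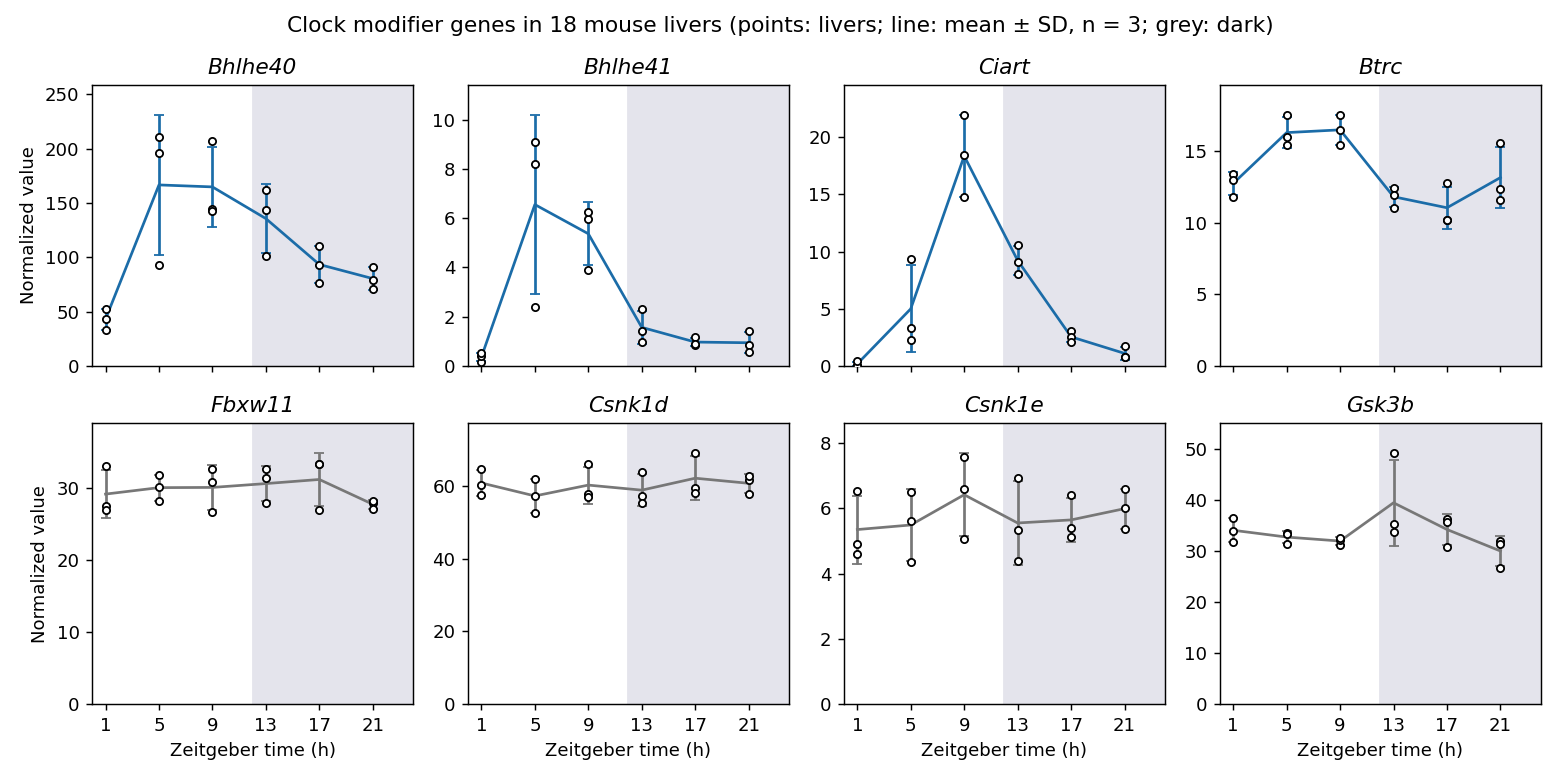
Normalized value (estimated reads scaled to the effective library size) of the 8 genes against zeitgeber time in hours. Open points are single livers, lines join the means, bars are SD (n = 3), the grey area is the dark phase and every vertical axis starts at 0. Blue panels are the 4 genes with a q-value below 0.05 in the 24 h fit, and the grey panels are the 4 without one, in which the highest mean is 1.09 to 1.31 times the lowest.

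The RNA values were accompanied by promoter sequence for 5 of the 8 members in RefSeq (GRCm38.p6), which gives windows of 300 bases around each transcription start. *Bhlhe40*, *Csnk1d* and *Btrc* had no entry. The E-box CACGTG, searched on both strands, was present in 7.15% of 32851 promoter windows. *Ciart* held 3 copies, whose first bases lay 116, 58 and 44 bases before the start, and *Bhlhe41* held 1, at 153 bases before it. The windows of *Csnk1e* (4 starts), *Fbxw11* and *Gsk3b* held none. Those of *Csnk1e* overlap in part and lie between 79441769 and 79442393 on chromosome 15. That is well inside the gene as GENCODE annotates it (79417856 to 79455566, minus strand), so the bases around its GENCODE start were not searched. Part of each window that held the E-box is shown. A link between the E-box and daily variation was not tested. The RefSeq starts of *Ciart* and *Bhlhe41* lie inside the genes as GENCODE annotates them. Only the bases upstream of the GENCODE gene are printed, 227 for *Ciart* and 112 for *Bhlhe41*. The E-boxes therefore stand closer to the end of the printed stretch than to the RefSeq start from which their distances are counted. Each sequence is on the minus strand, is written 5′ to 3′, and has the E-boxes in capitals. The *Ciart* stretch is chr3:95882252-95882478 and the *Bhlhe41* stretch is chr6:145865559-145865670.
Ciart: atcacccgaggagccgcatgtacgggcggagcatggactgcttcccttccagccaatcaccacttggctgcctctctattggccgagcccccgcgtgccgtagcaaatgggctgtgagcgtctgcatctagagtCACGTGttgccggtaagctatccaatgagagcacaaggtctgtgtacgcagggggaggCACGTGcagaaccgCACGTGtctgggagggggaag
Bhlhe41: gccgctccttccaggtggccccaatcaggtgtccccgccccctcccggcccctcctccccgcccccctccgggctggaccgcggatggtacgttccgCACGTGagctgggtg
3 other clock-related motifs, also searched on both strands, were absent from every member window. They were the E-prime box CACGTT, held by 4.68% of all windows, the D-box TTATGTAA, held by 0.938%, and the ROR element AGGTCA, held by 16.3%. A match is a description of the letters and not a measured binding site.

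*Ciart* (chromosome 3, 95878503 to 95882251, minus strand) had the largest daily change of the 8. Its normalized values were 0.104, 0.0455 and 0.430 at ZT1, then 2.31, 3.36 and 9.35 at ZT5. They stood at 21.9, 14.8 and 18.4 at ZT9 and at 9.14, 8.02 and 10.6 at ZT13. In the later dark phase they were 3.05, 2.55 and 2.07 at ZT17 and 1.74, 0.787 and 0.809 at ZT21. All 3 livers at ZT9 were above every other liver, and all 3 at ZT1 were below every other liver. The mean fell from 18.4 ± 3.58 (SD, n = 3) at ZT9 to 9.24 ± 1.27 at ZT13 without overlap of the livers, and the steps from ZT17 to ZT21 and from ZT21 to ZT1 did not overlap either. ZT5 overlapped both of its neighbours in this order, ZT13 and ZT17, because its livers spread over a wide range. At ZT1 the transcript was close to the limit of the libraries, with 0 to 4 estimated reads per liver and 5 in all, so no ratio to ZT1 is given.

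In the 24 h fit *Ciart* had a peak-to-trough difference of 3.67 ± 0.33 (SE) on the log2(value + 1) scale, a fold of 12.7 on that scale, with a peak at ZT10.6 ± 0.346 h (limma q-value 1.43e-06). It ranked 72 among all genes by *P*-value, and 0.0693% of genes had a larger fitted difference. The q-value was 2.40e-06 for the 6 time points and 0.00863 by JTK. Adding 1 to the values understates changes at low levels, and with 0.1 added instead the difference was 5.32. An annotated antisense transcript on the opposite strand, *C920021L13Rik*, had means between 0.506 and 0.688 over the 6 time points (limma q-value 0.759). Of the runs of 50 bases in *Ciart* transcripts, 11.9% also occur in *Gm9176*, a gene without a row in the table.

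*Bhlhe40* (chromosome 6, 108660629 to 108666925, plus strand) was the most abundant of the 8 per length. Its mean over all livers was 24.2 normalized units per kb of exon. Single livers had values of 33.3, 43.7 and 52.7 at ZT1, 92.9, 196 and 211 at ZT5, and 145, 143 and 207 at ZT9. The values were 162, 101 and 144 at ZT13, 76.3, 93.4 and 111 at ZT17, and 78.8, 71.1 and 91.5 at ZT21. The 3 livers at ZT1 were below all others, and the level then stepped down slowly from ZT5 to ZT21 with every neighbouring pair of time points overlapping. The highest mean was 166.7 ± 64.3 (SD, n = 3) at ZT5 and the lowest 43.2 ± 9.74 at ZT1. The fitted difference was 1.55 ± 0.32 (SE, log2), a fold of 2.93 in value + 1. The fitted peak was at ZT10.3 ± 0.796 h (limma q-value 0.00406, and 0.000711 for the 6 time points). JTK gave a q-value of 0.104, and 1.45% of genes had a larger fitted difference.

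*Bhlhe41* (chromosome 6, 145858243 to 145865558, minus strand) was far less abundant, at 0.391 normalized units per kb. Its values were 0.173, 0.409 and 0.526 at ZT1, 2.39, 8.19 and 9.07 at ZT5, and 5.95, 3.91 and 6.25 at ZT9. They were 1.42, 0.992 and 2.30 at ZT13, 0.858, 1.17 and 0.899 at ZT17, and 0.848, 0.587 and 1.41 at ZT21. ZT5 and ZT9 overlapped each other and lay above all other livers, whereas ZT1 lay below all others with 2 to 5 estimated reads per liver, 11 in all. The same liver, replicate 1, was the lowest at ZT5 for both DEC genes. The fitted difference was 2.10 ± 0.39 (SE, log2), a fold of 4.28 in value + 1. The fitted peak was at ZT8.04 ± 0.716 h (limma q-value 0.00172, and 0.000200 for the 6 time points). With 0.1 or 5 added to the values in place of 1 the difference was 3.06 or 0.99, and with voom weights it was 3.998. By JTK the q-value was 0.0844. On the scale with 1 added, 0.617% of genes had a larger fitted difference.

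A transcript of unknown type on the opposite strand of *Bhlhe41*, *Gm43909*, shares 16.4% of the runs of 50 bases of *Bhlhe41*. Its mean was 0.0657 at ZT1, 0.379 at ZT5, 0.568 at ZT9 and 0.0654 at ZT17, well below *Bhlhe41* and with its highest means at the same times (limma q-value 0.0486). Single livers ran from 0.0405 to 0.669 at ZT5 and from 0.265 to 1.15 at ZT9. The lowest livers at ZT1, ZT5 and ZT17 were at the lowest value of their libraries, so few reads lie behind these means. Whether reads were assigned by strand is not given in the sources used here, so reads from both strands of this locus cannot be told apart.

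The DEC genes followed different daily curves although both peaked in the light. Per kb of exon, the level of *Bhlhe40* was between 33.2 and 275 times that of *Bhlhe41* in single livers (median 120.6). This ratio of levels was lowest at ZT5 (41.0 ± 12.6, SD, n = 3) and ZT9 (44.7 ± 9.02). It was 132.5 ± 38.4 at ZT13, 139 ± 32.6 at ZT17, 133.0 ± 40.1 at ZT21 and 190.1 ± 73.3 at ZT1, where it rests on the few *Bhlhe41* reads given above. The log2 difference between the 2 genes had a fitted daily swing of 1.17 ± 0.18 (SE), and a permutation test over the 18 livers with 100000 resamples gave *P* = 7.0e-05, or 0.000280 after adjustment over the 4 gene pairs tested. Its fitted maximum was at ZT16.9 with 1 added to the values, at ZT19.1 with 0.1 and at ZT13.0 with 5. No run of 50 bases is shared between the 2 genes.

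**Figure D2:**
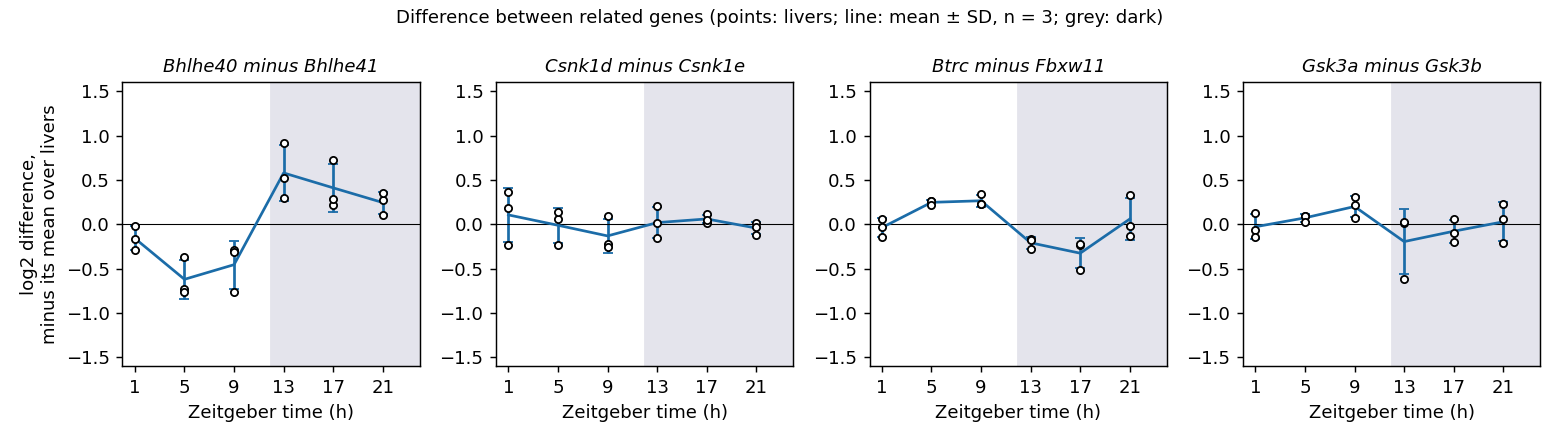
Difference of log2(normalized value + 1) between paired genes, minus its mean over the 18 livers, against zeitgeber time in hours. Points are livers, lines and bars are mean ± SD (n = 3) and the grey area is the dark phase. *Bhlhe40* minus *Bhlhe41* is low at ZT5 and ZT9, *Btrc* minus *Fbxw11* is high at ZT5 and ZT9, and the time point means of both kinase pairs lie closer to 0.

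The β-TrCP genes also differed from each other. *Btrc* (chromosome 19, 45363734 to 45530013, plus strand) had values of 13.4, 13.0 and 11.8 at ZT1, 17.5, 15.4 and 15.9 at ZT5, and 16.5, 17.5 and 15.4 at ZT9. It had 11.02, 12.4 and 11.9 at ZT13, 10.2, 10.2 and 12.7 at ZT17, and 12.3, 15.5 and 11.5 at ZT21. The change was small, since time points next to each other in rank all overlapped. The lowest liver at ZT9 (15.4) was above the highest at ZT17 (12.7). Such a gap between the highest and lowest time points was also present in *Gsk3b*, which was not called. For *Btrc* the fitted difference was 0.50 ± 0.11 (SE, log2), a fold of 1.42 in value + 1. The fitted peak was at ZT5.94 ± 0.823 h (limma q-value 0.00507, and 0.00696 for the 6 time points). JTK gave 0.0844. A larger fitted difference was found in 24.9% of genes. Of the runs of 50 bases in *Btrc* transcripts, 0.834% also occur in other genes, among them *Rpl6*. What part such reads have in the values of *Btrc* was not tested.

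*Fbxw11* (chromosome 11, 32642724 to 32746816, plus strand) ranged from 26.7 to 33.3 over the 18 livers, with a median of 29.2, and its means ran from 27.7 ± 0.611 (SD, n = 3) at ZT21 to 31.2 ± 3.64 at ZT17. Its fitted difference was 0.10 ± 0.09 (SE, log2; limma q-value 0.596). The log2 difference between *Btrc* and *Fbxw11* had a daily swing of 0.51 ± 0.12 (SE) with its maximum at ZT5.15 (permutation *P* = 0.00405, adjusted 0.00810). Per kb, the level of *Btrc* was 0.141 ± 0.00647 (SD, n = 3) of that of *Fbxw11* at ZT9 and 0.0909 ± 0.0108 at ZT17, and over all 18 livers this ratio of levels ran from 0.0784 to 0.148. Its size depends on the exon lengths used, 16908 bases for *Btrc* and 4327 for *Fbxw11*. Before division by length the means over all livers were 13.6 and 29.8.

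No daily change was detected in the kinase transcripts. *Csnk1d* (chromosome 11, 120961749 to 120991330, minus strand) ranged from 52.6 to 69.0 over the livers (median 58.7), with means between 57.2 ± 4.64 (SD, n = 3) at ZT5 and 62.1 ± 5.99 at ZT17. *Csnk1e* (chromosome 15, 79417856 to 79455566, minus strand) ranged from 4.35 to 7.59 (median 5.51), with means between 5.35 ± 1.04 at ZT1 and 6.42 ± 1.27 at ZT9. All time points overlapped their neighbours in rank for both genes. An antisense gene at the *Csnk1d* locus, *Gm28192*, shares 0.352% of the runs of 50 bases of *Csnk1d* and had a limma q-value of 0.554. The fitted differences were 0.07 ± 0.08 (SE, log2) for *Csnk1d* and 0.07 ± 0.14 for *Csnk1e*, with limma q-values of 0.718 and 0.915. The upper 95% limits of these differences correspond to 1.17-fold and 1.26-fold in value + 1. Such limits describe a single cosine only and are approximate where the difference is small beside its SE. Per kb, *Csnk1d* was 13.98 ± 2.02 times (SD over 18 livers) as abundant as *Csnk1e*, and this ratio showed no detectable rhythm (0.11 ± 0.12, SE, log2; permutation *P* = 0.653, adjusted 0.653).

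*Gsk3b* (chromosome 16, 38089001 to 38246084, plus strand) ranged from 26.6 to 49.1 (median 32.9). Its highest mean was 39.4 ± 8.44 (SD, n = 3) at ZT13, where replicate 2 alone reached 49.1, and its lowest was 30.0 ± 2.94 at ZT21. The fitted difference was 0.18 ± 0.11 (SE, log2; limma q-value 0.416, and 0.255 for the 6 time points), with an upper 95% limit of 1.32-fold in value + 1. This limit is for a single cosine, and the highest mean was already 1.31 times the lowest. Without replicate 2 at ZT13 the fitted difference was 0.06. For *Fbxw11* this limit was 1.21-fold. *Gsk3a*, the related kinase gene, had a fitted difference of 0.22 ± 0.07 (limma q-value 0.0573), and the log2 difference between *Gsk3a* and *Gsk3b* showed no detectable rhythm (0.21 ± 0.14, SE; permutation *P* = 0.338, adjusted 0.451). Of the runs of 50 bases of *Gsk3a*, 25.7% occur in other genes, the antisense gene *9130221H12Rik* and *Gm6275*, so its level is uncertain. Larger fitted differences than those of *Csnk1e*, *Csnk1d*, *Fbxw11* and *Gsk3b* were found in 96.3%, 95.6%, 91.9% and 79.5% of genes, respectively.

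A second harmonic tests whether a daily curve departs from a single cosine. The 12 h term was called for 0 of the 8 members by limma, beside 0.872% of all genes. *Bhlhe40*, *Bhlhe41*, *Ciart* and *Btrc* had unadjusted *P*-values below 0.05 for it, a level at which the share of all genes was not counted. The smallest q-values were 0.0807 for *Bhlhe41* and 0.144 for *Ciart*. For each of these genes the call turned on a single ZT5 liver, a different one for each. Without replicate 1 at ZT5 the q-value of *Bhlhe41* was 0.0249, and without replicate 3 at ZT5 that of *Ciart* was 0.0101.

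Set against the core clock, the 4 varying members peaked in the light phase, between *Nr1d1* and the *Per* genes or close to them. The fitted peak of *Nr1d1* (REV-ERBα, a repressor of *Arntl*) was at ZT6.20 ± 0.172 h (SE), that of *Per2* at ZT13.9 ± 0.255 h, that of *Cry1* at ZT18.8 ± 0.264 h and that of *Arntl* at ZT21.0 ± 0.343 h. *Btrc*, at ZT5.94, was closest to *Nr1d1*. The fitted peaks of *Bhlhe40* and *Ciart* lay within their errors of each other. Their measured curves differed, with the highest mean of *Bhlhe40* at ZT5 (166.7) and that of *Ciart* at ZT9 (18.4). Differences in peak time were not tested. In the list of 16 core clock genes 15 passed the 24 h test, 6 with a peak in the light and 9 in the dark, and their median peak-to-trough difference was 2.78 (log2) against 0.34 for the 8 members and 0.32 for all genes.

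**Figure D3:**
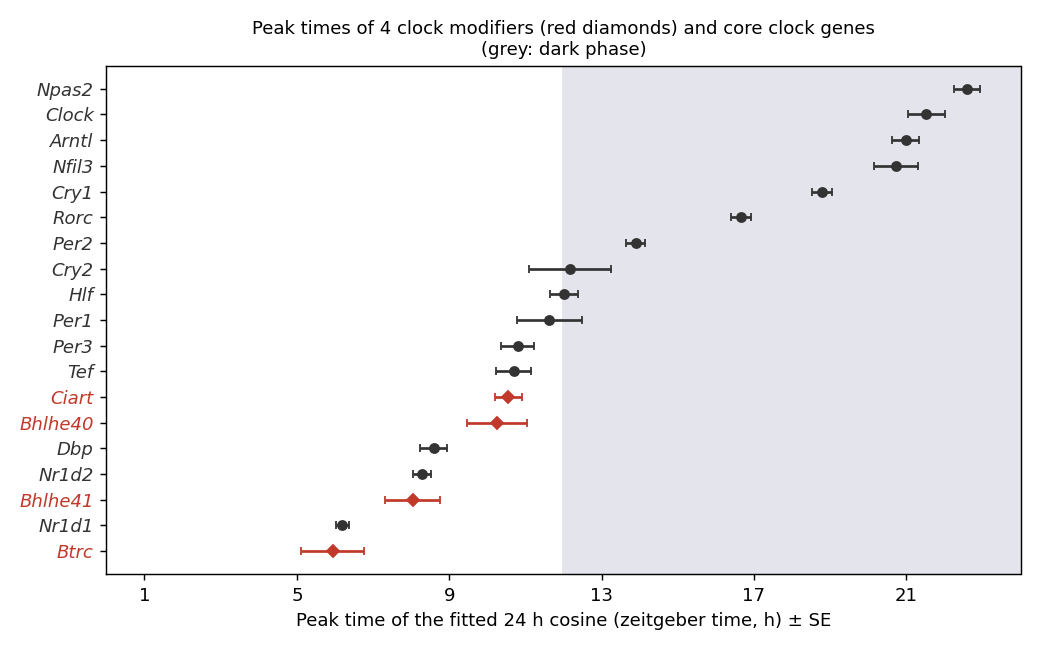
Fitted peak time of the 24 h cosine (horizontal axis, zeitgeber time in hours; bars are SE) for the 4 members with a q-value below 0.05 (red diamonds) and for the 15 core clock genes that passed the same test (dark circles), each fitted over 18 livers. *Btrc* and *Bhlhe41* lie next to *Nr1d1*, *Nr1d2* and *Dbp*, and *Bhlhe40* and *Ciart* next to *Tef* and *Per3*.

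Other enzymes that add or remove phosphate or ubiquitin showed mostly small daily changes. Of 15 further kinases linked to the clock, 6 passed the 24 h test, 5 with a peak in the light and 1 in the dark, with a median difference of 0.29 (log2) over the list, beside 35.3% of all genes called and a median of 0.32. The smallest q-values belonged to *Csnk1g3*, a casein kinase 1 gene (0.69 at ZT11.4, limma q-value 0.000168), its relative *Csnk1g2* (0.37 at ZT7.82, 0.00235), *Prkca* (0.63 at ZT3.27, 0.0205) and *Csnk2a2* (0.38 at ZT6.99, 0.0229). Of 6 phosphatase genes only *Ppp1cc*, a catalytic subunit of protein phosphatase 1, passed (0.29 at ZT8.13, limma q-value 0.0159), and the list median was 0.20. By the F test of the 6 time points 3 of the kinases and 0 of the phosphatases passed (limma; 1 phosphatase gene had an unadjusted *P*-value below 0.05), beside 26.3% of all genes.

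Among 16 other ubiquitin ligase genes 9 passed the 24 h test, 6 with a peak in the light and 3 in the dark, with a list median of 0.30 (log2), and 4 passed the F test of the 6 time points, beside the same 35.3% and 26.3% of all genes. *Cul4a*, a ligase scaffold, had a difference of 0.40 with a peak at ZT10.6 (limma q-value 0.000683). *Cul1*, the scaffold of the ligase that β-TrCP joins, had 0.35 at ZT2.50 (0.00366), and *Ube3a* had 0.45 at ZT3.68 (0.00553). Of 3 deubiquitinase genes 2 passed. *Usp2* went from a mean of 2.12 ± 0.473 (SD, n = 3) at ZT1 to 63.4 ± 3.09 at ZT9, with a fitted difference of 3.80 ± 0.38 (SE) and a peak at ZT11.9 (limma q-value 3.99e-06), a size close to that of *Ciart*. *Usp9x* had 0.31 at ZT5.56 (0.0184), and *Usp7* had 0.06 (0.758).

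**Figure D4:**
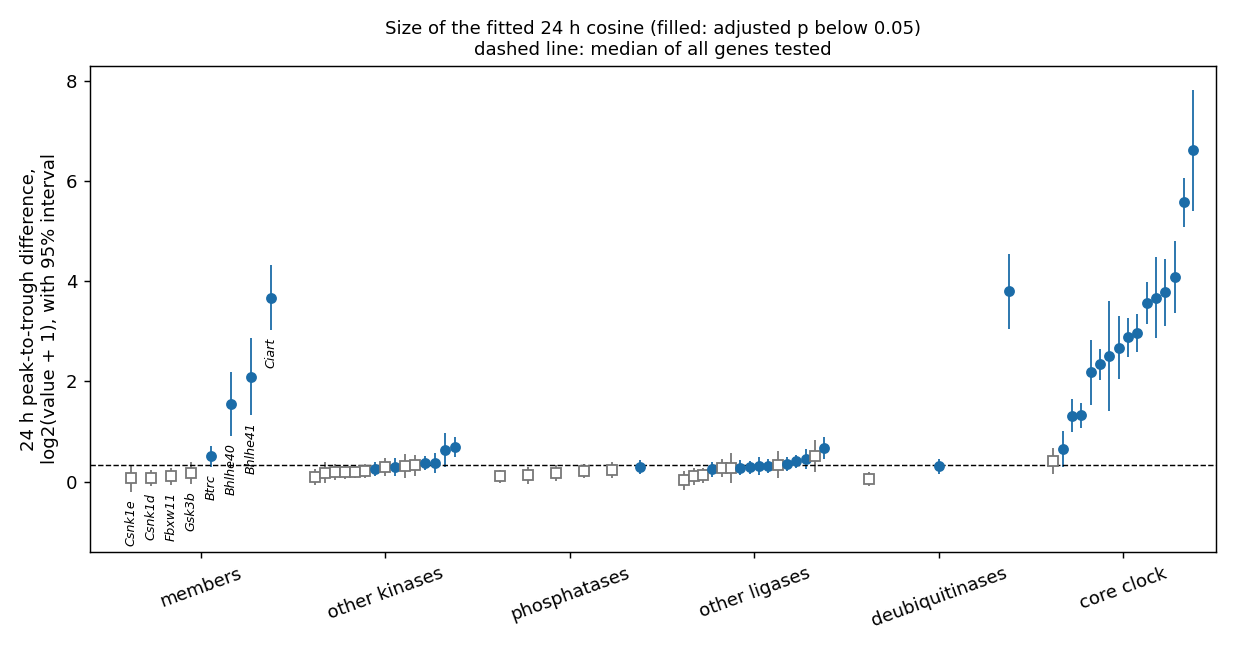
Fitted 24 h peak-to-trough difference on the log2(normalized value + 1) scale (vertical axis, bars are approximate 95% intervals) for the 8 members and for 5 lists of related genes, sorted within each list. Filled blue circles have a q-value below 0.05, open grey squares do not, and the dashed line is the median of all genes, 0.32. *Ciart*, *Bhlhe41* and *Bhlhe40* stand well above the dashed line, as do *Usp2* and most core clock genes, while most other enzymes lie near it.

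The genes whose levels ran most closely with each member were found by Pearson correlation of log2(value + 1) over the 18 livers among 12479 genes with a mean value of at least 1. These correlations are descriptions, since all livers share the same 6 time points. *Ciart* ran closest to *Coq10b* (r = 0.967), and *Gys2* (0.953) was also among its best matches, encoding liver glycogen synthase. Among the best matches of *Bhlhe40* were *Klf10* (0.900) and *Tef* (0.900), both transcription factor genes. *Bhlhe41* ran closest to *Dbp* (0.906), *Narf* (0.903) and *Gpcpd1* (0.903). For *Btrc* the closest were *Ctdsp2* (0.932), *Nme7* (0.925) and *Slc8b1* (0.919). The members without a detected rhythm had lower best matches, at 0.761 for *Csnk1d* with *Gdf10*, 0.747 for *Csnk1e* with *Zc3h4*, 0.810 for *Fbxw11* with *Snx5* and 0.808 for *Gsk3b* with *Mpdu1*.

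The livers carried 10268168 to 23242842 estimated reads each (median 12078875), and no library repeated another. The 5 hepatocyte markers summed to between 71498 and 103340 normalized units, lowest at ZT9 (71498 to 76089). All 5 markers of sinusoidal endothelium were present, none at 0. Like *Bhlhe40*, *Bhlhe41* and *Btrc*, their sum was highest at ZT5 and ZT9. It was 103 to 151 at ZT1, 156 to 210.3 at ZT5, 137 to 171 at ZT9, 117 to 162 at ZT13, 81.6 to 146 at ZT17 and 83.2 to 125 at ZT21. By mean, *Bhlhe40* and *Bhlhe41* were lowest at ZT1 and *Btrc* at ZT17. The 6 Kupffer cell and leukocyte markers summed to 69.8 to 164 over the livers, and the 5 stellate cell markers to 129 to 219. The 4 cholangiocyte markers, none at 0, ran the other way, with sums of 11.7 to 15.1 at ZT1, 5.58 to 6.92 at ZT5, 6.04 to 7.87 at ZT9, 8.86 to 9.26 at ZT13, 9.10 to 13.6 at ZT17 and 8.71 to 12.3 at ZT21. The part of cell composition in the members' daily curves was not tested.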

How the data were processed

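Liver RNA, called polyA RNA in the labels and whole RNA in the design text and the study's methods, was made into libraries with the NEBNext Ultra kit and sequenced as single reads of 50 bases on a HiSeq2500. The authors used CASAVA 1.8.2, removed adapters with cutadapt, quantified reads on the GRCm38 transcriptome (Ensembl gene-build 84) with RSEM 1.2.20 and normalized with limma. What the authors deposited is a linear signal: 0.5 was added to each gene's estimated reads, which were then scaled to a common effective library size. Each liver has 1 column, and the columns sum to between 941088 and 1077230. Multi-mapped reads were shared among genes by RSEM. Depth was read back from the lowest value of each liver. Counting error and replicate spread cannot be separated for values of a few reads.

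Values were taken as log2(value + 1) and fitted over all 18 livers and 14449 genes with limma 3.58.1 (R 4.3.3): a 24 h cosine and sine, the 6 time points, and an added 12 h pair. JTK used 18 orders with periods of 20, 24 and 28 h on the values. It was rewritten in Python 3.11.15, and both tests were tested on simulated data. CircaN and MetaCycle, also used in the study, were not run. Benjamini–Hochberg adjustment covered all genes, with a threshold of 0.05. Paired genes were compared by the log2 difference per liver with 100000 permutations, two-sided by the F statistic. Levels per kb used the union of exons in GENCODE M21 (GRCm38). This union covers all annotated transcripts of a gene, and the lengths of the expressed ones were not measured. Same-time libraries differed by 6.85 to 53.7 times sampling noise (mean chi-square per gene).

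The 8 members, the lists of kinases, phosphatases, ligases, deubiquitinases and core clock genes, and the markers were chosen with earlier results of these data known. From each list at most the 4 genes with the smallest q-values were named, plus any gene paired with a member, 4 reference clock genes and the 3 best correlated genes of each member. A few genes that this rule names are not reported here. Of the 5 pancreas markers only Cela1 was in the table, at 5.99 to 15.3. Alternatives were pseudocounts of 0.1 and 5, voom weights, a trended prior, dropping genes with a mean under 1, median ratio scaling, 24 h only or another null for JTK, and leaving out each of the 18 livers.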

Additional observations from a re-analysis of the deposited data

How the results depend on the processing

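The 4 members called by the 24 h fit and by the 6 time points were called under all 24 alternatives of each test. Their fitted differences ranged from 1.36 to 1.70 for *Bhlhe40* and from 0.39 to 0.58 for *Btrc* (log2), with q-values up to 0.0112 and 0.0149. The sizes of the low genes moved with the pseudocount. With 0.1 added, *Bhlhe41* was at 3.06 and *Ciart* at 5.32; with 5 added they were at 0.99 and 1.99, and with voom weights at 3.998 and 5.19. The number of members called by JTK was 1 in 21 of 22 alternatives and 3 when equal cosines were taken as 1 group, where *Bhlhe41* and *Btrc* each had a q-value of 0.0190. The number of members with a 12 h term ranged from 0 to 1 when single livers were left out and was 0 under the other alternatives. It was 1 without replicate 1 at ZT5, beside 102 of all genes, and 1 without replicate 3 at ZT5, beside 85. The log2 differences of both pairs with a rhythm stayed past the threshold in all 21 alternatives, between 0.95 and 1.78 for *Bhlhe40* and *Bhlhe41* and between 0.40 and 0.58 for *Btrc* and *Fbxw11*. The 4 members without a detected rhythm had none under any alternative of the 4 tests. No paired analysis was possible because the labels give the livers no numbers that are shared across time points. Depth limits *Ciart* and *Bhlhe41* at ZT1, where 5 and 11 estimated reads were behind the 3 livers.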
